A study of Mus musculus with 8 samples.

Results

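The EphA receptors and ephrin-A ligands described here are 9 genes: the receptors Epha3, Epha4, Epha5, Epha6, Epha7, Epha8 and Epha10 and the ligands Efna3 and Efna5. They were chosen by gene symbol among the 26711 features of a single-nucleus RNA-seq matrix of mouse primary visual cortex (V1), and each was found once. Together they held 4810920 of all unique molecular identifiers (UMIs, counted RNA molecules), or 0.254%. Of each gene's UMIs, 81.6% to 93.8% lay in nuclei of excitatory neurons. These nuclei also held most of the 1893856869 UMIs of all genes. Layer 2/3 held 525577254 and layer 4 held 398373984. The layer 5 types held 85914867, 96325943 and 30439655, and the layer 6 types 144344447, 237655840 and 30792596. A high share is therefore not by itself particular to these genes. The study asked how rearing in the dark and removal of the glucocorticoid receptor (GR) from astrocytes change the developing V1. All animals were GRfl/fl mice at postnatal day 21 that had received an adeno-associated virus in V1 at birth. In GR-KO the virus carried Cre, and in GR-Con it carried ΔCre, a truncated and inactive form, each behind GfaABC1D, a promoter active in astrocytes, and each with EGFP-CAAX, a membrane-bound green fluorescent protein. Mice of both kinds were reared normally (NR) or in the dark (DR), which gives 4 groups of 2 libraries, each from 1 mouse. The cell table names 1 male and 1 female library per group, and the libraries are called by group and sex here. The promoter was chosen to place Cre in astrocytes. Most of the RNA of these genes, like most UMIs of all genes, lies in neurons.

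Eph receptors are the largest family of receptor tyrosine kinases, and they are activated by ephrins on the surface of neighbouring cells. Ephrin-A ligands are held on the membrane by a lipid anchor and bind mainly EphA receptors. Binding sends a forward signal into the cell with the receptor, often through exchange factors of small GTPases that collapse or steer the growth cone, and a reverse signal into the cell with the ligand. In the visual system, graded EphA and ephrin-A proteins order retinal and thalamic axons into maps, and in cortex they mark areas and layers.

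The libraries held 9517 to 15161 nuclei, 102330 in all, with 168632129 to 288774016 UMIs per library and a median of 14861 to 29223 UMIs per nucleus. Cell types are the 20 that the deposited table assigns. In 13 of them every listed marker had its highest level in its own type, while L6IT had 0 of 3 and L4 and L5IT had 1 of 3 each. Barcode letters were shared between libraries by 2452 nuclei (2.40%). Cre was counted in the 4 GR-KO libraries (190 to 1054 UMIs) and in none of the 4 GR-Con libraries, and EGFP in all 8. Of these Cre UMIs, 43 to 86 per library were in astrocytes and 109 to 840 in excitatory neurons, the highest in NR GR-KO male, and the level was 4.14 to 10.4 CPM in astrocytes and 0.745 to 3.70 CPM in excitatory neurons. EGFP, from the same vector, was at 8.63 to 23.4 CPM in astrocytes and 0.0646 to 0.965 CPM in excitatory neurons. Both were thus higher per UMI in astrocytes in every library that held them, and the part of free RNA in the neuronal counts was not tested. Nr3c1, the GR gene, was at 268 to 284 CPM in GR-KO astrocytes and 207 to 263 CPM in GR-Con astrocytes, so it was not lower in GR-KO. CPM here are the UMIs of a gene per 1000000 UMIs of all genes, after summing the nuclei of 1 type in 1 library. Reads came from the 3′ end of transcripts, and where they lie relative to the deleted part of the gene is not given in the sources used here, so this count checks nothing about the deletion. Microglia numbered 2, 4 and 4 nuclei in NR GR-Con male, NR GR-KO male and DR GR-Con female, and they enter no comparison between groups.

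All 9 genes are protein coding. On GRCm38 (GENCODE vM21), Epha4 lies at chr1:77367185-77515088, Efna3 at chr3:89313899-89322965, Epha7 at chr4:28813131-28967499, Epha10 at chr4:124880899-124917800 and Epha8 at chr4:136929419-136956816. Epha5 lies at chr5:84054761-84417382, Epha6 at chr16:59653483-60605531, Epha3 at chr16:63543534-63864175 and Efna5 at chr17:62604184-62881317. No other gene of the count matrix overlaps any of them on the same strand, while Epha6, Epha7, Epha10 and Efna3 overlap at least 1 antisense gene of the matrix. Annotated genes absent from the matrix were not checked. Because GR is a transcription factor that binds DNA, the promoters (250 bases before to 50 after the start, RefSeq, GRCm38.p6) were searched on both strands. All 9 genes matched, with 11 windows. None held the palindromic glucocorticoid response element, AGAACA and TGTTCT with any 3 bases (NNN) between them, which 3 of 32851 promoters hold (0.00913%). None held its single arm AGAACA (19.0% of promoters), the cyclic AMP response element TGACGTCA (1.79%) or the AP-1 site TGANTCA (7.81%). The GC box GGGCGG was found in 10 of the 11 windows against 35.7% of all promoters, and the window without it was that of Epha3. The full glucocorticoid element contains the single arm, so these searches overlap. The 3 promoters printed here are those of Epha6, which has the most called differences, of Epha4, whose astrocyte difference held in every fit without 1 library, and of Epha3, the one without a GC box. Capitals mark a GC box on either strand. That of Epha6 is at chr16:60605482-60605781, that of Epha4 at chr1:77515039-77515338 and that of Epha3 at chr16:63864126-63864425, all on the minus strand.
Epha6: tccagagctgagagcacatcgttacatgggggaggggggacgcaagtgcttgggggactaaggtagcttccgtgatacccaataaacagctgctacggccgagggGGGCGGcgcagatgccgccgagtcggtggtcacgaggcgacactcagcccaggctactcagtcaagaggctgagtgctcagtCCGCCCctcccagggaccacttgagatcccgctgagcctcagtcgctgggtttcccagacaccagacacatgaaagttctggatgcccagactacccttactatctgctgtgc
Epha4: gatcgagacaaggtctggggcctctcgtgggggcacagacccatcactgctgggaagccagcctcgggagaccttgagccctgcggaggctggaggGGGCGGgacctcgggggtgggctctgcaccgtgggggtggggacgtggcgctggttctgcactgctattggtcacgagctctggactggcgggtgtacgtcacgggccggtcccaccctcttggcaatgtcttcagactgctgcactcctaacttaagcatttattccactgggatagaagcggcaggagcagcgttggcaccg
Epha3: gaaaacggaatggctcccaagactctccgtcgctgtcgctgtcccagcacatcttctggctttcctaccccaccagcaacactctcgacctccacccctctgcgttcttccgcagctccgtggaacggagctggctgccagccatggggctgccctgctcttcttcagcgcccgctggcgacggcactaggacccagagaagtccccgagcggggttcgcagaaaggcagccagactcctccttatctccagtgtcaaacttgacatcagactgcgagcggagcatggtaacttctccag

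Each receptor had its own order of cell types, and the 9 genes did not share one pattern (plot of CPM by cell type). In the names of the types, L2/3 to L6b are cortical layers, IT, PT, NP and CT stand for intratelencephalic, pyramidal tract, near-projecting and corticothalamic neurons, and Pvalb, Sst, Vip, Lamp5 and chandelier cells (ChC) are inhibitory. Means are over 8 libraries with the SD between libraries.

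**Figure D1:**
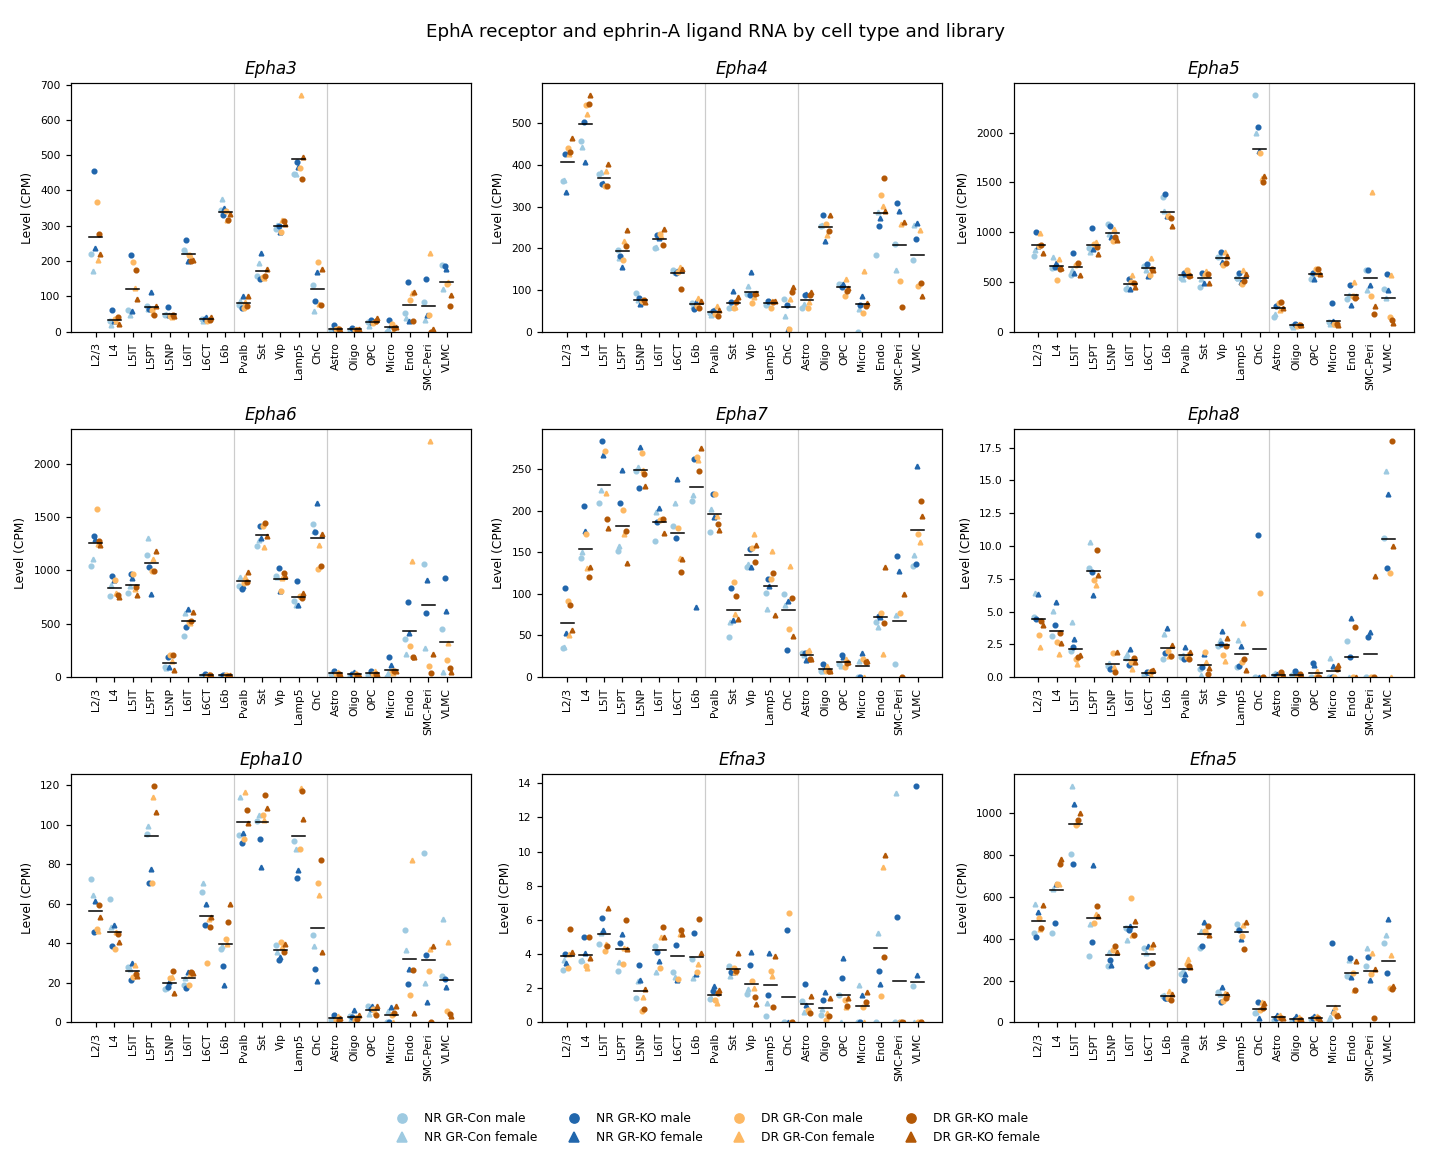
Levels of the 9 genes in the 20 deposited cell types, in CPM of UMIs summed per library and type. Each point is 1 of 8 libraries, coloured by group, and each bar is their mean; grey lines part excitatory, inhibitory and non-neuronal types. Epha4 is highest in L4 (499 CPM), Efna5 in L5IT (951 CPM), and Epha6 is at 16.8 CPM in L6b and 1262 CPM in L2/3.

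Epha3, a receptor with high affinity for ephrin-A5, was highest in Lamp5 interneurons at 488 ± 76.4 CPM (SD, n = 8). L6b followed at 339 ± 19.7 CPM, Vip at 299 ± 12.9 CPM and L2/3 at 269 ± 95.4 CPM. Among excitatory types it spanned 10.1-fold, from L6b down to 33.6 ± 12.9 CPM in L4, and this ratio was between 5.42 and 19.0 in every library. The SD in L2/3, L4 and L5IT (121 ± 67.3 CPM) was large relative to the mean beside that in L6b or Vip. These SDs are over all 4 groups, so they include differences between groups. To compare shares of nuclei at a common depth, each nucleus was thinned to 3000 UMIs. At that depth 34.2% to 60.1% of L2/3 nuclei held an Epha3 UMI (unthinned 71.9% to 93.9%), against 0.577% to 3.84% in oligodendrocytes (unthinned 1.45% to 13.2%), where the gene is near its floor. Median depth was 21863 UMIs per nucleus in L2/3 and 8864 in oligodendrocytes.

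Epha4, which also binds some ephrin-B ligands and guides corticospinal axons, was highest in L4 at 499 ± 57.5 CPM. L2/3 had 407 ± 46.2 CPM and L5IT 370.0 ± 20.2 CPM, and the fall from L4 to 66.1 ± 8.52 CPM in L6b was 7.55-fold (5.73 to 9.48 by library). Oligodendrocytes had 252 ± 22.0 CPM, the highest level among the 3 well-sampled glial types, and inhibitory types lay at 47.5 to 95.8 CPM. In oligodendrocytes Epha4 stood at 73.8% of its level in the summed excitatory nuclei of the same library, of which L2/3 and L4 are the most numerous. A list of 10 excitatory neuron genes (among them Slc17a7 and Camk2a) stood at 7.32% on that scale. At 3000 UMIs per nucleus, 37.6% to 43.8% of oligodendrocytes held an Epha4 UMI (unthinned 58.4% to 75.2%).

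Epha5, a receptor of retinal and thalamic map formation, was broad. Among the types with at least 10 nuclei in every library it was highest in L6b (1206 ± 109 CPM), followed by L5NP (988 ± 62.5 CPM) and L2/3 (871 ± 87.8 CPM), and its excitatory types differed by only 2.50-fold. Among glia it was at 583 ± 39.9 CPM in oligodendrocyte precursors (OPC), 237 ± 50.9 CPM in astrocytes and 65.0 ± 9.89 CPM in oligodendrocytes. The precursor level was 78.8% of that in the summed excitatory nuclei, with the neuron list at 10.8%. Chandelier cells had 1833 ± 302 CPM from 5 to 14 nuclei per library.

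Epha6 showed the widest excitatory span of the 9 members. It was at 1262 ± 158 CPM in L2/3, 1069 ± 158 CPM in L5PT and 868 ± 77.8 CPM in L5IT, against 137 ± 57.0 CPM in L5NP, 19.4 ± 5.88 CPM in L6CT and 16.8 ± 6.42 CPM in L6b. The ratio of L2/3 to L6b was 75.1 (53.7 to 211 by library). In L6CT neurons Epha6 was lower than in astrocytes in 8 of 8 libraries, and its L6b mean was also below the astrocyte mean. Sst interneurons were high, at 1329 ± 89.9 CPM. At 3000 UMIs per nucleus, 75.0% to 85.0% of L2/3 nuclei held an Epha6 UMI, against 3.25% to 7.11% in L6CT (unthinned 91.5% to 98.2% and 11.9% to 39.2%).

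Epha7, which exists in full and kinase-truncated forms in developing cortex, was highest in L5NP (249 ± 17.0 CPM), L5IT (231 ± 39.2 CPM) and L6b (228 ± 62.3 CPM). Its lowest excitatory level was in L2/3 at 64.5 ± 27.0 CPM, a 3.86-fold span. The L6b mean includes 84.3 CPM in NR GR-KO female, which had 58 L6b nuclei, against 211 to 276 CPM in the other 7 libraries. Epha8 was scarce. Its highest level among well-sampled types was 8.11 ± 1.33 CPM in L5PT, followed by 4.45 ± 1.41 CPM in L2/3 and 3.54 ± 1.31 CPM in L4, and L6CT was at 0.342 ± 0.152 CPM. VLMC, the fibroblast-like cells of the leptomeninges and vessels, had 10.6 ± 5.58 CPM of Epha8 from 32 UMIs in all. Epha10, whose kinase domain is inactive, was highest in Pvalb (102 ± 9.95 CPM), Sst (101 ± 11.1 CPM), Lamp5 (94.5 ± 17.0 CPM) and L5PT (94.2 ± 19.2 CPM), and at 2.31 ± 1.06 CPM in astrocytes.

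Of the ligands, Efna5 (ephrin-A5) was highest in L5IT at 951 ± 121 CPM, then L4 at 633 ± 124 CPM and L5PT at 499 ± 128 CPM. L6b was lowest of the excitatory types at 125 ± 14.2 CPM, a 7.59-fold difference (6.34 to 9.13 by library), and glia lay at 16.2 to 23.8 CPM in the 3 well-sampled types. Efna3 (ephrin-A3) was scarce and even, from 5.16 ± 0.881 CPM in L5IT to 1.83 ± 0.907 CPM in L5NP among excitatory types. Over the 8 excitatory types, the log2 levels of Efna5 and Epha4 had a Pearson correlation of 0.84, those of Epha6 and Efna5 one of 0.82 and those of Epha4 and Epha6 one of 0.79. The lowest were those of Epha5 with Efna5 (-0.63) and with Epha4 (-0.57). Over all 20 types the first 3 were 0.36, 0.63 and 0.21, and those of Epha5 were 0.45 with Efna5 and -0.11 with Epha4. Most pairs of members were above 0 over the 20 types. The highest were Efna3 with Efna5 (0.78) and Epha7 with Efna5 (0.77). These describe types that share libraries.

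Whether neighbours in these orders differ was tested within library on log2(CPM + 1) (exact paired permutation test, two-sided). Over all 20 types, 0 of 171 neighbour pairs passed after adjustment: the smallest p that 8 libraries allow is 0.00781, the smallest adjusted p was 0.0636, and 42 pairs had an unadjusted p below 0.05. In the 15 types with at least 10 nuclei in every library, a choice made after seeing the data, 42 of 126 neighbour pairs differed. By gene these were 6 of 14 for Epha3, Epha4 and Efna5, 7 for Epha5, 5 for Epha6 and Epha7, 3 for Epha8, 4 for Epha10 and 0 for Efna3. Among these types the steps from Lamp5 to L6b (Epha3), from L4 to L2/3 (Epha4), from L6b to L5NP and L5NP to L2/3 (Epha5), from L6IT to L5NP and L5NP to OPC (Epha6), from L5PT to L2/3 and L2/3 to L4 (Epha8) and from L5IT to L4 and L4 to L5PT (Efna5) passed. The top of the order did not separate for Epha6 (Sst and L2/3), Epha7 (L5NP, L5IT and L6b) or Epha10 (Pvalb, Sst, Lamp5 and L5PT).

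The genes whose levels over the 20 types were most like each member, among 13672 candidates, were Ftx (Pearson 0.90), Ly6h (0.87) and March4 (0.86) for Epha3, Gm29069 (0.90), R3hdm1 (0.84) and Rtn4r (0.83) for Epha4, and Osbpl6, Tmem67 and Crmp1 (each 0.90) for Epha5. For Epha6 they were Nell1 (0.87), Tbc1d30 (0.87) and Slc4a3 (0.86), for Epha7 Klc2, Zfp385b and Nyap1 (each 0.93), for Epha8 Sphkap (0.76), Slc16a11 and Gm42705 (0.75 each), and for Epha10 Morc2b (0.94), Kcnab2 (0.93) and Snhg14 (0.92). For the ligands they were Dpp10 (0.94) and Gm26871 (0.89) for Efna3 and Cabp1 (0.94), Grin2a (0.94) and Gm41361 (0.93) for Efna5.

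The first comparison asks how dark rearing changed the members in control animals. In GR-Con, Epha3 rose in L5IT neurons and Epha10 and Epha8 fell in L2/3, and Epha6 rose in L5NP. Of 122 pairs of a member and a cell type, 4 were called higher in DR and 2 lower (likelihood ratio test of edgeR, adjusted p below 0.05 over all genes of that type). Over all genes and types, 1.41% of pairs were called higher and 0.84% lower. Here and below, such shares pool all types, and shares within single types are not given. The quasi-likelihood F-test called 3, with 0.495% called over all genes. The median log2 fold change was 0.07 over the member pairs and 0.00 over all pairs. Comparisons of rearing within 1 genotype share libraries with comparisons of genotype within 1 rearing. The comparisons in GR-Con and in GR-KO share none, nor do those in NR and in DR. Values of the same pair in both genotypes are given side by side.

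Epha3 in L5IT was at 61.3 and 47.0 CPM in the male and female NR GR-Con libraries and at 197 and 124 CPM in DR GR-Con. The log2 fold change was 1.57 (SE 0.25, adjusted p = 8.2e-08, quasi-likelihood 0.014), and the call held in 4 of 4 fits that leave out 1 library (1.16 to 1.89). It was lost in 1 fit of the 4 groups over 8 libraries (adjusted p = 0.073). In GR-KO the same gene was at 217 and 57.7 CPM in NR and at 176 and 92.0 CPM in DR, and the groups overlapped (-0.02, SE 0.58). Over both genotypes the fold change was 0.77 (adjusted p = 0.40), and the test of the difference between genotypes gave adjusted p = 0.52. At 3000 UMIs per nucleus the share of L5IT nuclei with an Epha3 UMI was 14.5% and 11.2% in NR GR-Con and 36.0% and 23.0% in DR GR-Con (unthinned 48.7% and 38.0%, and 78.5% and 57.7%).

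Beside Epha3 in L5IT, 2 axonal genes and 2 of 9 genes patterned across cortical areas were called in this comparison (plot of L5IT genes). Robo1, a receptor of the repellent Slit, was at 14.6 and 13.01 CPM in NR GR-Con and 167 and 96.4 CPM in DR GR-Con. Gap43, a growth-cone protein, was at 51.2 and 56.3 CPM against 141 and 100.3 CPM. Rorb, a transcription factor of L4 and of primary sensory areas, was at 782 and 893 CPM against 315 and 428 CPM (-1.18, adjusted p = 2.6e-08). Scnn1a, a sodium channel subunit gene, was also lower (-1.85, adjusted p = 0.011, quasi-likelihood 0.11), and the other 7 area genes were not called, with adjusted p of 0.29 or more. Epha3, Robo1 and Gap43 were picked by the study on these samples, so their joint change is not independent evidence. The study named them among genes higher in excitatory neurons after loss of astrocyte GR, and found a similar set higher after dark rearing. By genotype in NR, Epha3 was not called here in L5IT or any other excitatory type. Its calls were in astrocytes and oligodendrocytes, as given below. Across the 8 libraries Epha3, Robo1 and Gap43 had the same 3 highest libraries in L5IT, which were NR GR-KO male, DR GR-Con male and DR GR-KO male, and Rorb was lowest in those 3. In L2/3 Epha3, Epha7, Robo1, Gap43 and the area gene Crym also had these 3 libraries highest, while the 3 lowest for Rorb there were NR GR-KO male, DR GR-KO male and DR GR-Con female. Over all types, 5 of 113 pairs of this area list were called higher and 5 lower in DR of GR-Con, and 0 higher and 14 lower of 133 in DR of GR-KO, where the shares over all pairs were 1.41% and 0.84% in GR-Con and 1.69% and 1.96% in GR-KO. NR GR-KO male, among the highest 3 for Epha3, also had the most Cre UMIs. In L5IT, Epha3 and Robo1 were higher in the male than in the female library of every group, and Gap43 in every group except NR GR-Con. No difference between the sexes was tested. The part of Cre and of cortical area in the Epha3 values was not tested.

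**Figure D2:**
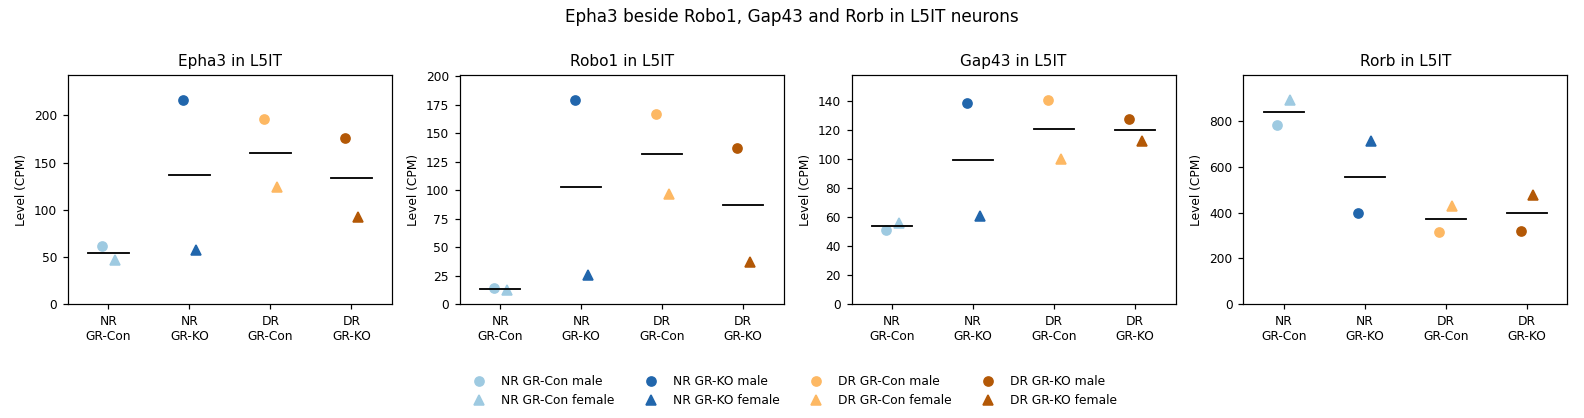
CPM of Epha3, Robo1, Gap43 and Rorb in L5IT neurons in the 4 groups. Each point is 1 library (1 male and 1 female per group) and each bar is the group mean of 2. Epha3 in NR is 61.3 and 47.0 CPM in GR-Con, while NR GR-KO male stands at 217 CPM with the highest Robo1 and a low Rorb.

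In L2/3 of GR-Con animals, Epha10 was at 72.4 and 64.7 CPM in NR and 47.3 and 46.5 CPM in DR (-0.59, SE 0.15, adjusted p = 0.0015, quasi-likelihood 0.035). Without NR GR-Con male the adjusted p was 0.25, and without NR GR-Con female 0.087. In GR-KO it was at 45.7 and 61.6 CPM in NR and 59.4 and 53.5 CPM in DR, with no separation. Epha8 in L2/3 was at 4.57 and 6.44 CPM in NR and 3.24 and 2.32 CPM in DR (-1.03, SE 0.30, adjusted p = 0.010, quasi-likelihood 0.12). That call was lost without NR GR-Con female (adjusted p = 0.46) and without DR GR-Con female (0.064).

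Epha7 in L2/3 was at 34.9 and 36.6 CPM in NR GR-Con and 90.8 and 50.1 CPM in DR GR-Con (0.94, SE 0.31, adjusted p = 0.034, quasi-likelihood 0.16). It was lost without NR GR-Con male (adjusted p = 0.40), NR GR-Con female (0.29) or DR GR-Con male (0.060, with the log2 fold change at 0.42). Epha6 in L5NP was at 96.6 and 81.7 CPM against 204 and 148 CPM (0.99, SE 0.18, adjusted p = 5.9e-05, quasi-likelihood 0.019), and it was lost without NR GR-Con female (0.074) and in 1 fit of the 4 groups (0.32). In GR-KO, Epha6 in L5NP was at 192 and 98.7 CPM in NR and 203 and 68.7 CPM in DR, so males were high and females low. Epha3 in L2/3 was at 220.0 and 172 CPM in NR GR-Con and 367 and 202 CPM in DR GR-Con and was not called. The sixth call was Epha6 in oligodendrocytes, described with the glia below.

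In GR-KO animals, dark rearing was accompanied by lower Epha7 in L4 and L5IT, higher Epha10 in L6b, Lamp5 and L5PT, and lower values of many members in glia and vessel cells. Of 143 pairs in 18 types, 3 were called higher and 15 lower, against 1.69% and 1.96% of all pairs. The quasi-likelihood test called 8, all lower (0.857% over all genes). Of the 15 lower calls, 12 were in non-neuronal types, and the median log2 fold change of the member pairs was -0.08 against -0.01 over all pairs. The shares of all pairs called in the non-neuronal types alone are not given.

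Epha7 in L4 was at 205 and 175 CPM in NR GR-KO and 119.8 and 132 CPM in DR GR-KO (-0.53, SE 0.16, adjusted p = 0.024, quasi-likelihood 0.076). In L5IT it was at 284 and 267 CPM against 190.3 and 179 CPM (-0.57, SE 0.16, adjusted p = 0.024, quasi-likelihood 0.12). The groups do not overlap in either type, but both calls were lost without either DR GR-KO library (adjusted p of 0.61 and 0.28 in L4 and 0.72 and 0.82 in L5IT, male and female). In GR-Con, Epha7 in L4 was at 143 and 149.7 CPM in NR and 172 and 131 CPM in DR.

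Epha10 in Lamp5 was at 72.9 and 77.1 CPM in NR GR-KO and 117 and 103 CPM in DR GR-KO (0.61, SE 0.15, adjusted p = 0.0070, quasi-likelihood 0.068). It was lost without NR GR-KO male (0.057) or DR GR-KO male (0.27). In L6b it was at 28.6 and 18.8 CPM against 50.9 and 59.8 CPM (1.16, SE 0.25, adjusted p = 0.0047, quasi-likelihood 0.50), and in L5PT at 70.7 and 77.8 CPM against 119 and 106 CPM (0.63, SE 0.18, adjusted p = 0.032, quasi-likelihood 0.25). The L6b call was lost without DR GR-KO female (0.72), and the L5PT call without NR GR-KO male (0.13), DR GR-KO male (0.95) or DR GR-KO female (0.51). NR GR-KO female had 58 L6b and 59 L5PT nuclei. Epha6 in L6CT was at 27.4 and 24.4 CPM in NR GR-KO and 17.9 and 16.4 CPM in DR GR-KO (-0.58, SE 0.15, adjusted p = 0.0059, quasi-likelihood 0.069) and was lost without either DR GR-KO library (0.31 and 0.30).

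Over both genotypes, with 4 libraries on each side, DR raised Epha4 in L4 and Efna5 in Pvalb interneurons by both tests of edgeR (plot of members by group). Of 123 pairs, 3 were called higher and 3 lower, against 2.69% and 2.7% of all pairs. The quasi-likelihood test called 2, both higher (3.48% over all genes). These shares of members are near or below the background. Epha4 in L4 was at 457, 442, 503 and 407 CPM in NR and 545, 522, 548 and 568 CPM in DR, with no overlap (0.31, SE 0.10, adjusted p = 0.030, quasi-likelihood 0.043). Leaving out any 1 library other than NR GR-KO male ended that call, with adjusted p between 0.061 and 0.16 and the log2 fold change between 0.24 and 0.33. Efna5 in Pvalb was at 231, 253, 203 and 233 CPM in NR and 281, 305, 272 and 266 CPM in DR, again with no overlap (0.30, SE 0.084, adjusted p = 0.020, quasi-likelihood 0.042). It was lost without NR GR-Con male (0.13), NR GR-KO male (0.060), DR GR-Con female (0.092), DR GR-KO male (0.12) or DR GR-KO female (0.095).

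**Figure D3:**
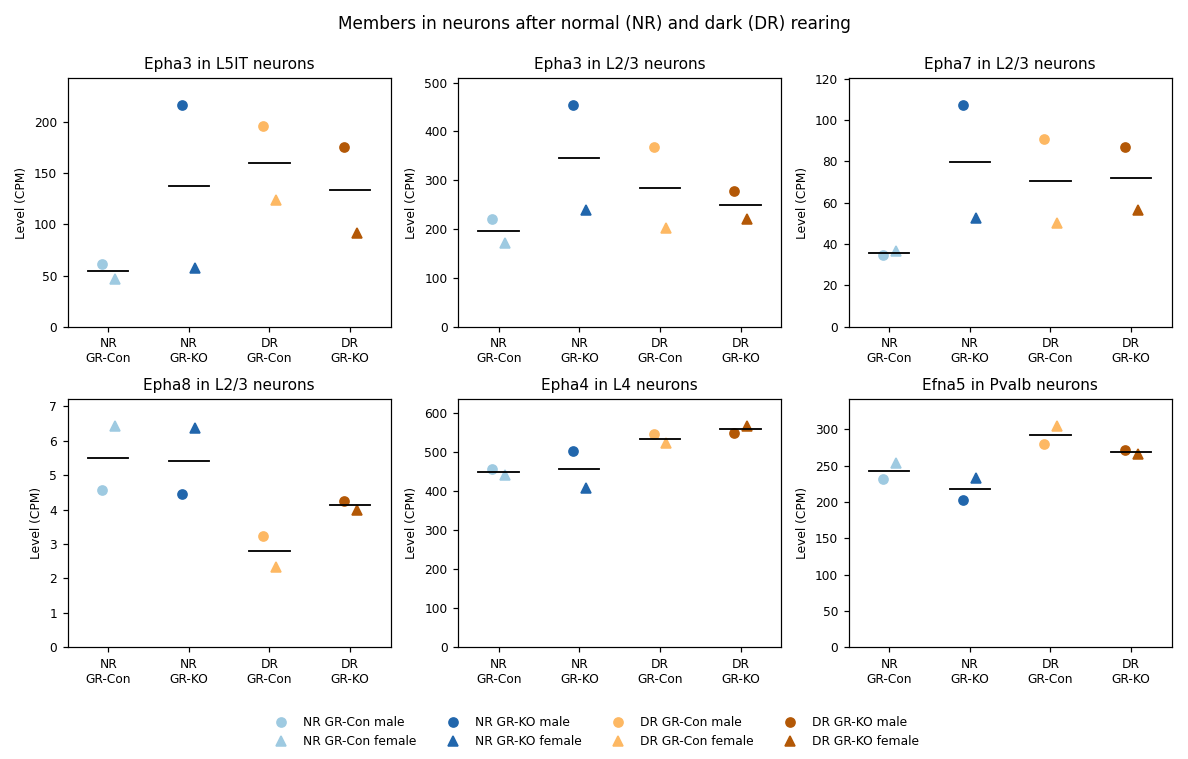
CPM of Epha3 in L5IT and L2/3, Epha7 and Epha8 in L2/3, Epha4 in L4 and Efna5 in Pvalb in the 4 groups. Each point is 1 library and each bar is the group mean of 2. Epha4 in L4 and Efna5 in Pvalb are higher in every DR library than in every NR library, by 0.31 and 0.30 on the log2 scale.

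Epha8 was called lower in DR in L2/3, L4 and L5IT. In L4 it was at 3.13, 5.04, 3.98 and 5.70 CPM in NR and 2.71, 1.78, 3.38 and 2.61 CPM in DR, so the groups overlapped (-0.75, SE 0.23, adjusted p = 0.015, quasi-likelihood 0.062). In L2/3 it was at 4.57, 6.44, 4.45 and 6.37 CPM against 3.24, 2.32, 4.25 and 3.99 CPM (-0.69, SE 0.23, adjusted p = 0.024, quasi-likelihood 0.062). In L5IT it was at 2.00, 4.18, 2.33 and 2.92 CPM against 1.37, 1.03, 1.53 and 1.67 CPM (-1.04, SE 0.33, adjusted p = 0.039, quasi-likelihood 0.11), from 176 UMIs in all. The groups do not overlap in L2/3 or L5IT. Leaving out NR GR-Con female, NR GR-KO female or DR GR-Con female ended each of the 3 calls (adjusted p between 0.088 and 0.25), as did NR GR-Con male in L2/3 (0.054), DR GR-KO female in L4 (0.080), and DR GR-Con male (0.094) and DR GR-KO male (0.13) in L5IT. Epha10 in Lamp5 was higher in DR (0.43, SE 0.12, adjusted p = 0.025, quasi-likelihood 0.055), with NR at 92.0, 87.9, 72.9 and 77.1 CPM and DR at 87.6, 119, 117 and 103 CPM. The call held in 2 of 8 fits that leave out 1 library, without NR GR-Con male and without DR GR-Con male, and the other 6 gave adjusted p between 0.057 and 0.21.

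The genotype comparison asks what removal of astrocyte GR changed. In astrocytes, Epha4 was higher in GR-KO under both rearings. It was at 56.8 and 66.0 CPM in NR GR-Con, 88.4 and 90.8 CPM in NR GR-KO, 56.4 and 72.1 CPM in DR GR-Con and 88.8 and 94.2 CPM in DR GR-KO. Every GR-KO library lay above every GR-Con library. Over both rearings the log2 fold change was 0.51 (SE 0.12, adjusted p = 0.0011, quasi-likelihood 0.018, DESeq2 8.4e-04), and the call held in 8 of 8 fits that leave out 1 library (0.44 to 0.57, adjusted p up to 0.024). In NR alone it was 0.48 (SE 0.15, adjusted p = 0.023, quasi-likelihood 0.045), lost without NR GR-Con male (0.44), NR GR-KO male (0.11) or NR GR-KO female (0.15). In DR alone it was 0.54 (SE 0.21, adjusted p = 0.42). The interaction was -0.06 (adjusted p = 1.00). At 3000 UMIs per nucleus, 14.4% to 18.3% of GR-Con and 20.8% to 23.2% of GR-KO astrocytes held an Epha4 UMI (unthinned 22.9% to 36.1% and 30.8% to 55.5%), with 402 of 9486 astrocytes left out as too shallow.

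This was the one call of 123 pairs over both rearings, against 0.174% called higher and 0.222% lower over all genes (0.196% by the quasi-likelihood test, which called the same pair). The neuron list summed to 420 and 355 CPM in NR GR-Con astrocytes, 539 and 531 CPM in NR GR-KO, 340 and 421 CPM in DR GR-Con and 382 and 384 CPM in DR GR-KO, with 0 of its 10 genes at 0. Between NR groups the list differed 1.38-fold in mean and Epha4 1.46-fold, and between DR groups 1.01-fold and 1.42-fold. The part of neuronal RNA in the Epha4 values was not tested.

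**Figure D4:**
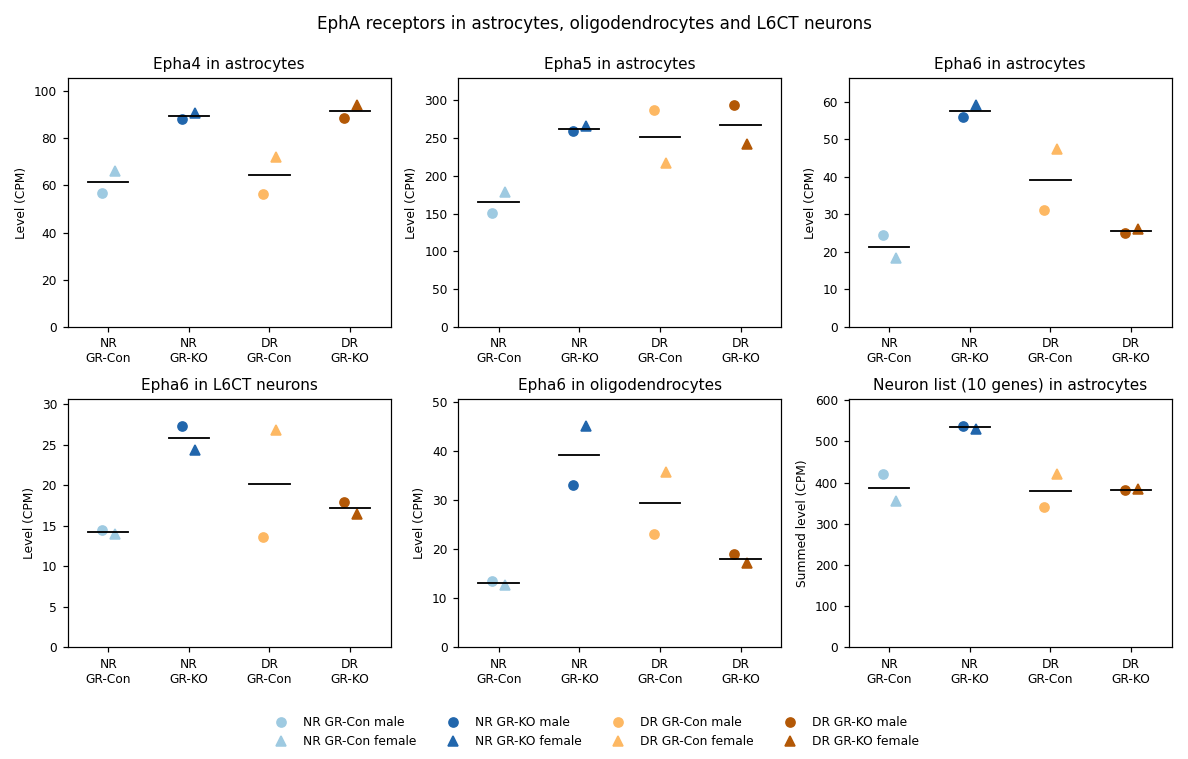
CPM of Epha4, Epha5 and Epha6 in astrocytes, of Epha6 in L6CT and oligodendrocytes, and of the 10-gene excitatory neuron list summed in astrocytes. Each point is 1 library and each bar is the group mean of 2. Epha4 is higher in GR-KO under both rearings, while Epha6 and the neuron list are highest in NR GR-KO.

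In NR animals the other glial differences were larger for Epha6 and Epha3. Of 137 pairs in 17 types, 11 were called higher in GR-KO and 0 lower, against 0.491% and 0.313% of all pairs. The quasi-likelihood test called 6 (0.361% over all genes). Of the 11 calls, 5 were in astrocytes, 4 in oligodendrocytes, 1 in precursors and 1 in L6CT neurons, and the median over member pairs was 0.13 against 0.00 over all pairs. The shares above pool all types. The share called was larger in astrocytes alone, where an unadjusted p of 0.0020 (Epha10, likelihood ratio test) had an adjusted p of 0.032. Its value is not given, so whether the members stand out among astrocyte genes was not tested.

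Epha6 in astrocytes was at 24.4 and 18.4 CPM in NR GR-Con and 55.8 and 59.1 CPM in NR GR-KO (1.36, SE 0.17, adjusted p = 5.0e-13, quasi-likelihood 0.0017). Epha3 was at 5.75 and 4.33 CPM against 17.7 and 10.8 CPM (1.41, SE 0.30, adjusted p = 1.2e-04, quasi-likelihood 0.023). Both calls held in 4 of 4 fits that leave out 1 library. Epha5 was at 151 and 179 CPM against 259 and 265 CPM (0.60, SE 0.16, adjusted p = 0.0031, quasi-likelihood 0.015), lost without NR GR-Con male (0.15) or NR GR-KO female (0.085). Epha10 was at 1.37 and 1.79 CPM against 3.56 and 3.80 CPM (1.16, adjusted p = 0.032, quasi-likelihood 0.11), from 155 UMIs in all, and the call held in 0 of 4 such fits (adjusted p from 0.093 without NR GR-KO male to 0.44 without NR GR-Con male). The neuron list was 1.38-fold higher in mean in NR GR-KO astrocytes, Epha6 2.69-fold, Epha3 2.82-fold, Epha5 1.59-fold and Epha4 1.46-fold. The NR GR-KO libraries were also the deepest, with a median of 22827.5 and 29223 UMIs per nucleus over all types. Per astrocyte the median was 8662 and 12123.5 UMIs in NR GR-KO and 6267 and 5586.5 in NR GR-Con. The part of depth and of neuronal RNA in the astrocyte values was not tested.

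In oligodendrocytes, Epha6 was at 13.5 and 12.8 CPM in NR GR-Con and 33.1 and 45.2 CPM in NR GR-KO (1.53, SE 0.22, adjusted p = 4.8e-09, quasi-likelihood 0.034), a call that held in 4 of 4 such fits. Epha3 (1.45, adjusted p = 0.0035, quasi-likelihood 0.21), Efna5 (1.43, 0.026 and 0.32) and Epha5 (0.47, 0.047 and 0.15) were also called higher. The Epha3 call was lost without NR GR-Con female (0.21) or NR GR-KO male (0.075), the Efna5 call without NR GR-Con male (0.59) or NR GR-KO female (0.27), and the Epha5 call without any 1 of the 4 libraries (0.13 to 0.64). In precursors Epha6 was at 23.2 and 32.4 CPM against 57.0 and 52.3 CPM (0.98, SE 0.20, adjusted p = 7.9e-04, quasi-likelihood 0.015), lost without NR GR-Con male (0.40). The neuron list was 1.59-fold higher in NR GR-KO oligodendrocytes and 1.44-fold higher in precursors. Epha6 is a gene of neurons by the levels above, at 4.36% of its level in the summed excitatory nuclei in astrocytes, 3.02% in oligodendrocytes and 4.78% in precursors.

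In L6CT neurons, where Epha6 is as low as in glia, it was at 14.5 and 13.9 CPM in NR GR-Con and 27.4 and 24.4 CPM in NR GR-KO (0.85, SE 0.16, adjusted p = 1.1e-04). The quasi-likelihood test gave 0.42, and the call was lost without NR GR-Con male (0.37) or NR GR-Con female (0.41). The 3 libraries with the highest Epha6 in L6CT, NR GR-KO male, NR GR-KO female and DR GR-Con female, were also the 3 highest in astrocytes. In the excitatory types with high Epha6, values in NR GR-KO were 1319 and 1296 CPM in L2/3 against 1044 and 1107 CPM in NR GR-Con, which was not called. Epha3 in L5IT was at 217 and 57.7 CPM in NR GR-KO against 61.3 and 47.0 CPM (1.34, SE 0.53, adjusted p = 0.58), and Epha7 in L2/3 at 107 and 52.5 CPM against 34.9 and 36.6 CPM (1.12, adjusted p = 0.15). In both, NR GR-KO male stood far above the other 3 libraries.

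In DR animals 0 of 122 pairs were called by the likelihood ratio test, with 0.319% of all pairs called higher and 0.194% lower. The F-test of quasi-likelihood (0.00431% over all genes) and DESeq2 (0.496%) also called 0. At an unadjusted p below 0.05 the 3 tests had 13, 14 and 8 pairs. Without DR GR-Con male the likelihood ratio test called 12 pairs, without DR GR-Con female 4 and without DR GR-KO male 2. Epha6 in astrocytes was at 31.0 and 47.4 CPM in DR GR-Con and 24.9 and 26.2 CPM in DR GR-KO. The median log2 fold change was 0.01 over member pairs and -0.01 over all pairs.

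The difference of differences, GR-KO against GR-Con in NR less the same in DR, was called in 4 of 125 pairs, all higher and all in glia, against 0.139% of all pairs higher and 0.0423% lower. They were Epha6 in astrocytes (1.94, SE 0.33, adjusted p = 1.6e-05), oligodendrocytes (2.21, SE 0.35, 1.3e-06) and precursors (1.63, SE 0.37, 0.014), and Epha3 in astrocytes (1.83, SE 0.46, 0.026). The quasi-likelihood test called 0 (0.00276% over all genes), with adjusted p of 0.16, 0.072, 0.20 and 0.35 in that order and 28 pairs at an unadjusted p below 0.05. DESeq2 called 2, Epha6 in astrocytes and in oligodendrocytes. These 2 calls held in 8 of 8 fits that leave out 1 library, and the other pair of calls in 2 of 8 each.

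Of the 15 lower calls of DR in GR-KO, 5 were in glia, 7 in vessel and leptomeningeal cells and 3 in neurons. Epha6 fell in astrocytes (-1.09, SE 0.14, adjusted p = 1.1e-10, quasi-likelihood 0.0026), oligodendrocytes (-1.09, SE 0.21, 4.6e-05 and 0.037) and precursors (-0.88, SE 0.19, 7.6e-04 and 0.0037). The first 2 held in 4 of 4 fits without 1 library, and the precursor call was lost without DR GR-KO female (0.20). Epha3 in astrocytes (-1.01, adjusted p = 0.013, quasi-likelihood 0.081) was lost without NR GR-KO male (0.14), DR GR-KO male (0.15) or DR GR-KO female (0.38). Epha7 in oligodendrocytes (-0.82, 0.039 and 0.15) was lost without the same 3 (0.27, 0.47 and 0.27). The neuron list in DR GR-KO was 0.716 of its NR GR-KO mean in astrocytes and 0.575 in oligodendrocytes, and Epha6 0.444 and 0.462. In precursors the list was at 0.615 and Epha6 at 0.528. In GR-Con, Epha6 in oligodendrocytes went the other way, from 13.5 and 12.8 CPM in NR to 23.1 and 35.7 CPM in DR (1.12, adjusted p = 0.012, quasi-likelihood 0.28), lost without NR GR-Con male (0.63) or NR GR-Con female (0.91), while the neuron list was 0.919 of its NR mean.

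In VLMC of GR-KO animals 5 members fell in DR by both tests of edgeR. Many genes were called in this type, where an unadjusted p of 0.0015 (Efna5, likelihood ratio test) had an adjusted p of 0.011. The share of all VLMC genes called is not given, so whether the members stand out there was not tested. Epha6 was at 927 and 623 CPM in NR and 81.2 and 46.7 CPM in DR (-3.87, SE 0.44, adjusted p = 3.7e-16, quasi-likelihood 0.0011), and Epha5 at 576 and 421 CPM against 113 and 83.4 CPM (-2.60, SE 0.37, 1.5e-10 and 0.0017). Epha4 (-1.52, 5.7e-05 and 0.0080), Efna5 (-1.39, 0.011 and 0.045) and Epha3 (-1.27, 0.0011 and 0.019) were also lower. The Epha4 call was lost without DR GR-KO female (0.058), the Epha3 call without DR GR-KO male (0.17), and the Efna5 call without NR GR-KO female (0.21), DR GR-KO male (0.13) or DR GR-KO female (0.069). The neuron list was at 1871 and 2766 CPM in NR GR-KO and 464 and 607 CPM in DR GR-KO, 0.231 of the NR mean. NR libraries held more neuronal RNA in this type than DR ones apart from DR GR-Con female, which had 3 VLMC nuclei. VLMC numbered 20 and 47 nuclei at a median of 11021 and 7925 UMIs in NR GR-KO. In DR GR-KO they numbered 53 and 65 nuclei at 3656 and 3907 UMIs. The part of neuronal RNA and of depth in the VLMC values was not tested. Epha6 fell in endothelial cells (-1.62, 0.025 and 0.41) and Epha3 in smooth muscle and pericytes (-4.25, 0.033 and 0.55), the latter from 96 UMIs in all. The neuron list was 0.830 of its NR GR-KO mean in endothelial cells (0.927 without Mef2c) and 0.716 in smooth muscle and pericytes (0.516 without Mef2c). The first was lost without NR GR-KO male (0.46), DR GR-KO male (0.11) or DR GR-KO female (0.12), the second without DR GR-KO male (0.19) or DR GR-KO female (0.054).

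The scarce members had no called genotype difference. Over both rearings the log2 fold change of Efna3 was above 0 in 10 of 10 types tested (0.12 to 0.61) and that of Epha8 in 8 of 8 (0.01 to 0.84), with 0 called. The median over all pairs was 0.00, and types of 1 library are not independent. In L4, Efna3 was at 3.57 and 3.68 CPM in NR GR-Con, 4.98 and 4.08 in NR GR-KO, 3.31 and 3.19 in DR GR-Con and 5.00 and 3.79 in DR GR-KO.

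Of the 13 other Eph and ephrin genes, 11 to 12 were tested in each comparison. Their counts read against the shares of all pairs already given for each comparison, and no enrichment was tested. In NR 0 of 121 pairs were called by genotype by edgeR's likelihood ratio test, and 7 had an unadjusted p below 0.05. The quasi-likelihood test and DESeq2 also called 0, with 9 and 2 such pairs. In DR 4 of 114 were called higher and 1 lower, and all 4 were Ephb2, the EphB receptor of excitatory synapses. The quasi-likelihood test called Ephb2 in 0 types there. In L6CT, Ephb2 was at 151 and 136 CPM in DR GR-Con and 286 and 255 CPM in DR GR-KO (0.92, SE 0.18, adjusted p = 4.0e-04), though the quasi-likelihood test gave 0.39. Between NR and DR in GR-KO, where 9 of 121 pairs were higher and 1 lower, Ephb2 in L6CT rose by both tests (1.08, adjusted p = 9.0e-09, quasi-likelihood 0.040) from 121 and 138 CPM. Its interaction in L5IT was the single call of 117 (-0.86, adjusted p = 0.0082, quasi-likelihood 0.35). In DR animals Efnb2, an ephrin-B ligand, was lower in GR-KO than in GR-Con in L6CT (43.2 and 43.6 CPM against 26.5 and 21.2 CPM, -0.86, adjusted p = 7.3e-04, quasi-likelihood 0.39). The remaining comparisons called 2 higher and 1 lower of 113 (DR against NR in GR-Con), 5 higher and 1 lower of 113 (DR against NR over both genotypes) and 1 of 113 (genotype over both rearings), which was Efnb1 in L5PT (1.03, adjusted p = 0.027, quasi-likelihood 0.61). Efnb1 was low there, at 0.781 to 1.30 CPM in GR-Con and 0.741 to 2.86 CPM in GR-KO, which overlap.

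Among 32 genes of forward signalling, 39 of 470 pairs were called higher in DR and 6 lower over both genotypes, and the quasi-likelihood test called 34, beside 2.69%, 2.7% and 3.48% of all pairs. No enrichment of this list was tested. Anks1, an adaptor that binds Eph receptors, rose in 7 types, and in L6CT it was at 28.0, 38.5, 44.2 and 37.9 CPM in NR and 56.2, 64.6, 92.7 and 86.9 CPM in DR (1.00, SE 0.13, adjusted p = 1.8e-11, quasi-likelihood 0.0047). Tiam1, an exchange factor of Rac, also rose in 7 types (L6CT 0.70, adjusted p = 2.1e-07, quasi-likelihood 0.0073). Fyn, a Src-family kinase, rose in 6, with 0.62 in oligodendrocytes (adjusted p = 2.8e-04, quasi-likelihood 0.019), and Vav2 in 4, of which the quasi-likelihood test called 1. That test called Anks1 in 4 types, Tiam1 in 5 and Fyn in 4. In L6CT Vav2 was at 0.935 to 2.77 CPM in DR and 0.514 to 1.10 CPM in NR, which overlap (1.39, adjusted p = 0.0084, quasi-likelihood 0.059). In GR-KO alone 36 of 550 were called higher and 14 lower (1.69% and 1.96% of all pairs), among them Tiam1 in 9 types (8 higher and 1 lower, in VLMC), Anks1 in 8 and Nck2, an adaptor, in 5 (L6IT 0.72, adjusted p = 4.3e-05, quasi-likelihood 0.050). There the quasi-likelihood test called Tiam1 in 3 types, Anks1 in 2 and Nck2 in 1. In GR-Con 9 of 470 were higher and 4 lower, near the 1.41% and 0.84% of all pairs. Ngef, the exchange factor ephexin that links EphA receptors to small GTPases, fell in L5IT from 183 and 163 CPM to 100.0 and 86.7 CPM (-0.89, SE 0.15, adjusted p = 6.2e-07, quasi-likelihood 0.0084). Vav3 in L4 fell (-0.98, adjusted p = 5.8e-04, quasi-likelihood 0.14), while in L6IT it was called higher. Vav2 in L4 (1.47, 0.0019 and 0.15) and the phosphatase Ptpro in L4 (3.98, 3.0e-10 and 0.10) rose. Vav2 was near its floor, at 0.363 and 0.392 CPM in NR GR-Con and 1.16 and 0.937 CPM in DR GR-Con. Ptpro was at 0.745 and 0.682 CPM against 16.4 and 5.82 CPM, male and female. In GR-KO, Ptpro in L4 was at 3.96 and 1.89 CPM in NR and 8.44 and 1.04 CPM in DR.

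By genotype, forward partners had 5 of 529 pairs higher in NR, 7 of 469 higher in DR and 2 of 470 higher over both rearings, with 0 lower in each, beside 0.491%, 0.319% and 0.174% of all pairs higher. Anks1b rose in NR GR-KO astrocytes, from 124 and 92.9 CPM to 199.5 and 197 CPM (0.81, SE 0.17, adjusted p = 5.2e-05, quasi-likelihood 0.0085), and it is abundant in neurons. Ngef (1.48, 4.6e-05 and 0.080) and Kalrn (1.12, 0.0016 and 0.15) rose in oligodendrocytes, beside the neuron list given above, and Ptpro in L4 (2.02, 0.0031 and 0.90). In DR, Anks1 rose in L5IT (0.65, 0.0038 and 0.18) and Rock2, a kinase of the actin skeleton, in Lamp5 (0.64, 0.034 and 0.21). Over both rearings the calls were Ngef in oligodendrocytes (1.13, 0.012 and 0.87) and Rock2 in Sst (0.49, 0.0022 and 0.22). The interaction had 0 of 471 called by the 3 tools, with 45 at an unadjusted p below 0.05 in the likelihood ratio test, 54 in the quasi-likelihood test and 41 in DESeq2. Of the 3 co-receptors of reverse signalling, 2 were tested. The likelihood ratio test called 1 of 20 pairs lower in DR of GR-KO and 0 of 17 to 19 in the other 6 comparisons, where 0 to 4 pairs had an unadjusted p below 0.05. The quasi-likelihood test called 1 lower by genotype in NR and 1 in each direction in DR of GR-KO, as did DESeq2, and 0 elsewhere.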

How the data were processed

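Nuclei were isolated from flash-frozen V1 and sorted by DRAQ5 per the labels, and as DRAQ5+ GFP- events per the study's methods. Per the labels and the study's methods, the authors made 10x 3′ libraries, aligned reads to mm10 with Cell Ranger 8.0.1, filtered nuclei by counts, removed predicted doublets with DoubletFinder, annotated nuclei in Seurat 5.3.0, and deposited UMI counts per nucleus with a cell table of library and cell type. Sex comes from the library names. UMI counts were summed per library and cell type. Types with at least 10 nuclei in every library of a fit were tested with edgeR 4.0.16 (R 4.3.3): TMM scaling, filterByExpr, likelihood ratio test, Benjamini-Hochberg adjustment over all genes of a type, threshold 0.05. The quasi-likelihood F-test and DESeq2 1.42.0 were alternatives. Standard errors are on the log2 scale. The 7 comparisons share libraries, apart from those in GR-Con with those in GR-KO and those in NR with those in DR. The 2 mice per group leave few degrees of freedom. Depth per type limits precision for Epha8 and Efna3. Levels were tested by exact sign flips with numpy 2.4.6 over 8 libraries. The scripts were tested on simulated data, in which the likelihood ratio test, and less so the quasi-likelihood test and DESeq2, made a larger share of false calls than the threshold allows. Members and lists were chosen with earlier results of these data known. Pairs were described in full where called, and list genes were named by the number of types called, up to 4 per comparison. A gene among those most like Efna3 is not reported here.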

Additional observations from a re-analysis of the deposited data

Results flagged for a closer look

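In 4 pairs the genotype difference depended on rearing by edgeR's likelihood ratio test of the interaction. The interaction log2 value was 1.94 for Epha6 in astrocytes, 2.21 for Epha6 in oligodendrocytes, 1.63 for Epha6 in OPC and 1.83 for Epha3 in astrocytes. In each, GR-KO was above GR-Con in NR and below it in DR. The ratio of the group means in NR was 2.69, 2.98, 1.96 and 2.82 in that order, and in DR 0.651, 0.614, 0.633 and 0.732. The neuron list had ratios of 1.38 in NR and 1.01 in DR in astrocytes, 1.59 and 0.995 in oligodendrocytes, and 1.44 and 1.07 in OPC. By the quasi-likelihood test 0 of the 4 passed. Median depth per astrocyte (male and female library) was 8662 and 12123.5 UMIs in NR GR-KO and 6267 and 5586.5 in NR GR-Con. In DR it was 4889 and 5227 UMIs in GR-KO and 5307 and 7199 in GR-Con. The part of depth and of neuronal RNA in the 4 interactions was not tested.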

How the results depend on the processing

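The cause of each change of count was not tested unless the setting itself removes types or libraries. Shares over all genes under these settings are not given here. By genotype in NR, 11 pairs were called, against 6 by DESeq2, 6 by the quasi-likelihood test, 21 with sex as a term, 4 in 1 fit of 4 groups over 8 libraries, 1 without the non-neuronal types (an alternative chosen after seeing the data, as was the choice of 15 types for levels) and 5 (without NR GR-Con male) to 16 (without NR GR-KO female) with 1 library left out. By genotype in DR, 0 pairs became 2 with sex as a term and 0 (without DR GR-KO female) to 12 (without DR GR-Con male) with 1 library left out. For DR against NR in GR-Con, 6 became 3 by the quasi-likelihood test and 1 to 19 with 1 library left out, the extremes being without NR GR-Con female and without DR GR-Con male. In GR-KO, 18 became 9 by DESeq2, 8 by the quasi-likelihood test, 5 in the fit of 4 groups, 11 with at least 50 nuclei per library, 6 without the non-neuronal types and 7 (without DR GR-KO male) to 26 (without NR GR-KO male) with 1 library left out, with 9 without DR GR-KO female. The 4 interactions became 2 by DESeq2, 0 by the quasi-likelihood test, 9 with sex as a term, 0 without the non-neuronal types and 2 (without NR GR-Con male) to 10 (without DR GR-Con male) with 1 library left out. Over both genotypes, 6 became 2 by the quasi-likelihood test and 0 (without DR GR-Con female) to 10 (without NR GR-KO male) with 1 library left out. Over both rearings, 1 became 2 without a filter on low counts, 2 with sex as a term, 0 without the non-neuronal types and 1 to 3 with 1 library left out, the latter without NR GR-KO male or DR GR-Con female. Neighbour steps in level that passed went from 0 of 171 to 42 of 126 without the 5 types under 10 nuclei in a library. Over the 46 called pairs and 481 alternative values, 314 kept the call, 167 lost it and 0 changed sign. The RLE factors kept 46 of 46 calls, the quasi-likelihood test 20, and the fit of 4 groups 12 with 16 lost, among them Epha3 in L5IT (adjusted p = 0.073) and Epha6 in L5NP (0.32) for DR against NR in GR-Con, and Epha4 (0.13) and Epha5 (0.071) in astrocytes and Epha6 in OPC (0.071) by genotype in NR. No paired analysis was possible because the library names carry no replicate number. Sex, which they do carry, was fitted as a term and kept 44 of 46 calls. In comparisons of 4 libraries that fit leaves 1 residual degree of freedom. For Epha6 in astrocytes by genotype in NR, the adjusted p of the likelihood ratio test was 4.0e-25 with the term and 5.0e-13 without it. The kept calls are therefore no check of robustness.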
